A study of Mus musculus with 42 samples.

Results

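The cathepsins are the main proteases of the lysosome, and 10 of their genes, of 54446 genes in the count table, are described here in the liver: Ctsa, Ctsb, Ctsc, Ctsd, Ctse, Ctsh, Ctsk, Ctsl, Ctss and Ctsz. They were chosen by name, and all 10 had enough counts to be tested. RNA of whole liver was sequenced in 42 female APOE*3-Leiden mice, 1 library per mouse. All mice carried the human APOE*3-Leiden transgene, so there was no wild-type group. The 10 chow-fed mice stayed on a maintenance diet. The 32 other mice were 8 to 14 weeks old when they started on a Western-type diet (WTD) with 1% cholesterol, 15% cocoa butter and 40.5% sucrose by weight. After 3 weeks of run-in they were matched into a group on WTD alone (n = 16) and a group on WTD with atorvastatin (n = 16), an inhibitor of HMG-CoA reductase, at 3.0 mg/kg/day and from week 5 at 4.5 mg/kg/day. From week 22 the WTD of both groups also held 0.05% sodium cholate, and livers were taken at week 32. The chow-fed mice carry a mouse number series of their own (AZ) and the WTD-fed mice another (Gen), so diet and any other difference between these series cannot be told apart.

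Cathepsins are made as inactive precursors, sorted to the lysosome mostly by mannose 6-phosphate receptors and activated by cleavage in its acid interior. Most are cysteine proteases of the papain type, while cathepsin A is a serine carboxypeptidase and cathepsins D and E are aspartic proteases. Macrophages hold much of them, and cystatins, stefins and kininogens bind and block the cysteine cathepsins that leave the lysosome. In the liver they are known from protein turnover in hepatocytes, from antigen processing in macrophages and from breakdown of matrix.

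Counts on genes ranged from 15661381 to 36224054 per mouse. In 9 libraries (3 chow, 5 WTD and 1 WTD with atorvastatin), more than 20% of the genes at 1 to 2 CPM in their group had no count at all (up to 57.3%), which bears on the weak members Ctse and Ctsk. The livers held hepatocyte RNA throughout, since the 8 hepatocyte markers summed to between 52926 and 163040 CPM in single mice. Levels are given as CPM, counts per 1000000 counts of a library, with library sizes scaled by edgeR's TMM method. Levels of different genes are compared only as RPKM, which divides CPM by the length of the merged exons in kilobases.

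For 7 of the members, a promoter window from RefSeq (GRCm38.p6, 250 bases before to 50 after the start of transcription) was used here, with a pair of windows for Ctsa. They were searched on both strands for CACGTG, the core of the E-box that TFEB and other MiT-TFE factors bind in lysosomal genes, and for GAGGAAGT, the core bound by PU.1, a factor of the macrophage lineage. CACGTG occurred in 3 of the 7 members, Ctsd, Ctsa and Ctsl, and in 7.15% of all 32851 windows (2187 of 27025 genes). GAGGAAGT occurred in 2 of the 7 members, Ctss and Ctsc, and in 3.2% of all windows (997 of 27025 genes). The stretches that hold these letters are shown for 4 members, an aspartic, a serine and a pair of cysteine proteases, with the motif in capitals.
Ctsd, chr7:142387888-142388077, minus strand, bases -250 to -61 from the start: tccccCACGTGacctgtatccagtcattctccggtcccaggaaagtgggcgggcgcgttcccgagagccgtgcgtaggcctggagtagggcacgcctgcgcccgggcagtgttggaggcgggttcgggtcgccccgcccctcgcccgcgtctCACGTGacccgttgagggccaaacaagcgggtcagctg
Ctsa, chr2:164833653-164833792, plus strand, bases -120 to 20: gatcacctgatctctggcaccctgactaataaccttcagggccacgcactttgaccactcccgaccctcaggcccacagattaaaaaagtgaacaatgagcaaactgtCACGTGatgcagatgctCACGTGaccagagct
Ctsl, chr13:64370711-64370770, minus strand, 60 bases from -250: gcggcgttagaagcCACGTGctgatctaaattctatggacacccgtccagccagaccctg
Ctss, chr3:95526666-95526805, plus strand, bases -120 to 20: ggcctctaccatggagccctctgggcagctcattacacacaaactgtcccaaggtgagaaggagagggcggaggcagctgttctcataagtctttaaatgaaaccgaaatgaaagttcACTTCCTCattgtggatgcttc
In Ctsd the E-box began at bases -245 and -98, in Ctsa at -12 and 6, and in Ctsl at -236. Both matches in Ctsa lay in its window 2, while window 1 held none. Window 2 of Ctsa and the window of Ctsl lie wholly inside the annotated genes. Most of the window of Ctsd does too, with the E-box at -98 inside the gene and that at -245 outside. In Ctss the 8 capital letters began at base -2 and are GAGGAAGT on the other strand. A match of letters is no evidence that a factor binds there.

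On chow, RPKM of Ctsz was highest, at 217 ± 21.3 (SD, n = 10), with every mouse above the range of the other members. Ctsl (141 ± 19.8) and Ctsb (132 ± 11.2) followed with overlapping ranges. Ctsh (64.7 ± 3.82) stood alone below them, then Ctsa (39.3 ± 3.34) and Ctss (35.7 ± 6.81), which overlapped, and then Ctsc (23.5 ± 3.36) and Ctsd (6.67 ± 2.26). Ctse (0.843 ± 0.866) and Ctsk (0.755 ± 0.542) were lowest and could not be ordered. On WTD, Ctsb (291 ± 25.8, n = 16), Ctss (283 ± 53.8) and Ctsz (279 ± 39.8) were highest and overlapped with one another. Ctsl (153 ± 12.1) followed and overlapped with the lowest mouse of Ctss, then Ctsh, Ctsa, Ctsd (23.2 ± 5.32), Ctsc (22.6 ± 2.74), Ctsk (11.0 ± 5.03) and Ctse (2.27 ± 1.08). With atorvastatin, Ctsb (240 ± 21.7, n = 16) and Ctsz (222 ± 21.4) came first and overlapped, Ctss (174 ± 45.5) overlapped with both and with Ctsl (158 ± 12.6), and Ctsk was at 4.17 ± 1.86.

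**Figure D1:**
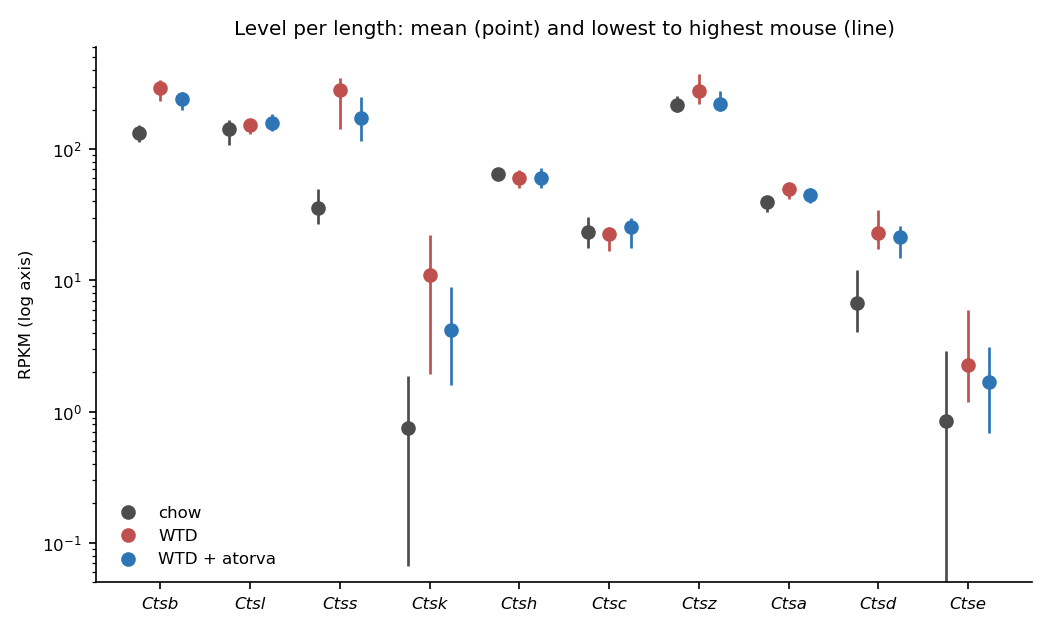
RPKM of the 10 cathepsin genes on a log axis, where points are group means and lines run from the lowest to the highest mouse (chow n = 10, WTD n = 16, WTD with atorvastatin n = 16). The line of Ctse on chow is drawn from the foot of the axis because 1 mouse had no count. Ctss and Ctsk are the members whose group means lie furthest apart on this axis, while the lines of Ctsk on chow and with atorvastatin overlap.

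Ctss moved from place 6 of 10 on chow to place 2 on WTD and place 3 with atorvastatin. It made up 5.40% ± 1.01 of the summed RPKM of the 10 members on chow, 23.9% ± 3.09 on WTD and 18.1% ± 3.29 with atorvastatin. Over the same groups the share of Ctsz was 32.7% ± 1.66, 23.7% ± 2.05 and 23.4% ± 1.5, and that of Ctsl 21.3% ± 2.27, 13.1% ± 1.22 and 16.6% ± 1.58. The sum itself had a median RPKM of 659 on chow (598 to 726), 1176 on WTD (889 to 1368) and 936 with atorvastatin (821 to 1077), so that no chow-fed mouse reached a WTD-fed one. The RPKM of Ctsd is too low by construction, because 808 of its 2351 exon bases are shared with Gm49369 on the same strand, which had 0 counts, and read pairs in shared bases are dropped as ambiguous. With these bases taken off the length, the mean RPKM of Ctsd was 10.2 on chow, 35.3 on WTD and 32.6 with atorvastatin. Ctsd then came before Ctsc with atorvastatin. Pairs that reach from shared into other bases stay dropped, so these values and the CPM of Ctsd may still be too low. With the longest transcript as the length, Ctsb came before Ctsl and Ctsc before Ctss on chow, and Ctsc before Ctsd on WTD.

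A gene is called changed at a Benjamini-Hochberg adjusted p under 0.01 over all 15574 tested genes in edgeR's quasi-likelihood test. For WTD against chow, 7 of the 10 members were higher (Ctsk, Ctss, Ctsd, Ctse, Ctsb, Ctsz and Ctsa) and 0 were lower, while Ctsl, Ctsc and Ctsh did not pass the test. Of all tested genes, 17.5% were called higher and 16.0% lower in this comparison. The median log2 fold change was 0.75 over the members and 0.03 over all tested genes. Between the WTD-fed groups, 4 members were lower after treatment (Ctsk, Ctss, Ctsz and Ctsb) and 0 higher, against 2.26% of all tested genes called lower and 4.84% higher. Here the median log2 fold change was -0.22 over the members and 0.00 over all tested genes. In either direction, edgeR called 1106 of 15574 genes there, DESeq2 1400 of 13310 and limma-voom 3145 of 15574. The share of higher genes among all called in that comparison, 68.2%, was 50.9% with DESeq2, 52.8% in a fit of these groups alone, 55.6% when every mouse had to have 10 counts, 54.9% after RLE normalization and 58.3% with limma-voom. Between atorvastatin-treated and chow-fed mice, 4 members were higher (Ctss, Ctsk, Ctsd and Ctsb) and 0 lower, against 14.2% and 10.7% of all tested genes. The 3 comparisons share their mice in pairs, so their values are given side by side and not as independent evidence.

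**Figure D2:**
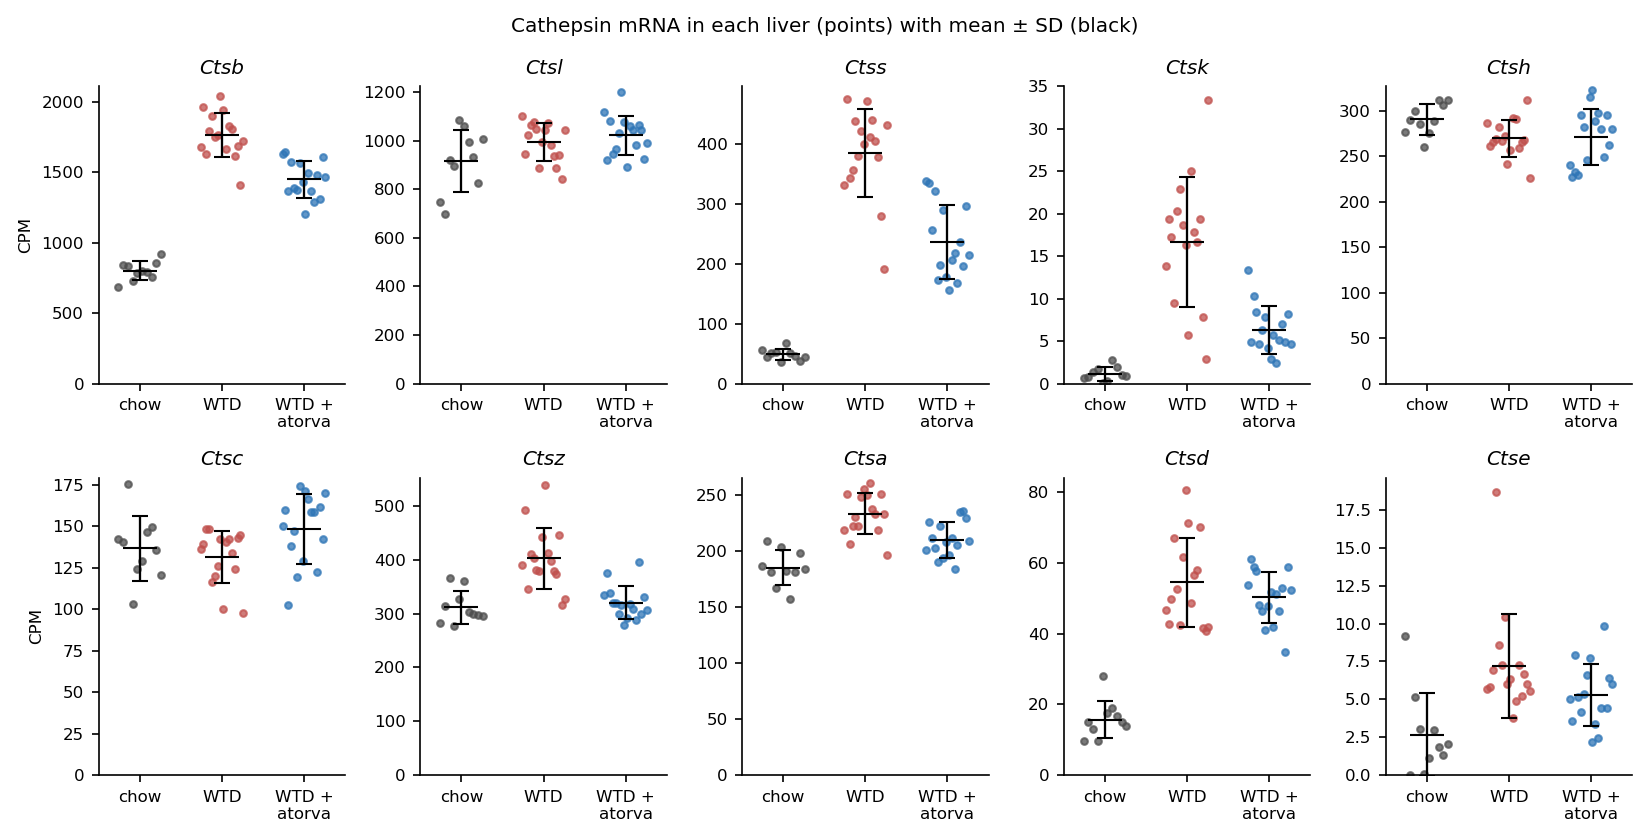
CPM of each cathepsin gene in each liver, one point a mouse, with the mean and SD of the group in black (chow n = 10, WTD n = 16, WTD with atorvastatin n = 16) and axes that start at 0, at which the lower bar of Ctse on chow is cut. In Ctsb, Ctss, Ctsd and Ctsk every untreated WTD-fed mouse lies above every chow-fed mouse, and in Ctsl, Ctsh and Ctsc the 3 groups overlap.

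Among the cysteine cathepsins that cut within proteins, Ctsb (chr14:63122462-63145923, plus strand) encodes cathepsin B, an enzyme of protein breakdown in the lysosomes of most cells. The lowest, median and highest CPM of Ctsb were 684, 796 and 921 on chow, 1411, 1760 and 2046 on WTD, and 1201, 1450 and 1643 with atorvastatin. Every WTD-fed mouse, treated or not, lay above every chow-fed mouse, and all 16 treated mice lay below the median of the untreated WTD-fed mice. Ctsb was 2.20-fold higher on WTD than on chow (95% CI 2.01 to 2.41, edgeR adjusted p = 1.4e-20) and fell by 17.8% with atorvastatin (log2 fold change -0.28, SE 0.05, edgeR adjusted p = 0.00023). It was 1.81-fold higher with atorvastatin than on chow (95% CI 1.66 to 1.98). On the opposite strand, Fdft1, which encodes squalene synthase of cholesterol synthesis, shares 774 exon bases with Ctsb. Its mean CPM was 333 on chow, 62.2 on WTD and 98.3 with atorvastatin, opposite in direction to Ctsb. The libraries were strand-specific, but the strand setting of the counting is not given in the sources used here.

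Ctss (chr3:95526786-95556403, plus strand) encodes cathepsin S, which cuts the invariant chain from class II molecules in antigen-presenting cells. Its lowest, median and highest CPM were 36.2, 48.1 and 67.7 on chow, 192, 403 and 475 on WTD, and 157, 216 and 338 with atorvastatin. The lowest WTD-fed mouse, replicate 15, stood well below the other 15, the lowest of which had 280 CPM, and yet far above the chow-fed mice. The library of this mouse had no count for 21.9% of the genes at 1 to 2 CPM in its group. Ctss was 7.95-fold higher on WTD than on chow (95% CI 6.51 to 9.69, edgeR adjusted p = 2.0e-22) and fell by 38.6% with atorvastatin (log2 fold change -0.70, SE 0.11, edgeR adjusted p = 2.7e-05). All 16 treated mice were below the median of the untreated ones, 4 of them below their whole range, and they were 4.88-fold above chow (95% CI 4.03 to 5.91).

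Ctsk (chr3:95499256-95509362, plus strand), the neighbour of Ctss on the chromosome, encodes cathepsin K, the collagen-degrading protease of osteoclasts. Its lowest, median and highest CPM were 0.10, 0.94 and 2.81 on chow, 2.92, 17.5 and 33.4 on WTD, and 2.42, 5.45 and 13.4 with atorvastatin. The WTD-fed mice were spread widely, with replicate 15 again the lowest and replicate 16 the highest, while every untreated one lay above the chow-fed mice. The libraries of WTD replicates 15 and 16 lacked 21.9% and 25.5% of the weak genes. Without libraries that lacked over 20% of them, untreated WTD-fed mice ranged from 7.79 to 22.9 CPM. Of all members Ctsk had the largest log2 fold changes, 3.87 (SE 0.37) for WTD over chow (14.6-fold, 95% CI 8.76 to 24.3, edgeR adjusted p = 1.4e-12) and -1.40 (SE 0.27) for atorvastatin over WTD (edgeR adjusted p = 0.00021), so that it fell by 62.1%. It was 5.52-fold higher with atorvastatin than on chow (95% CI 3.41 to 8.94). The lowest values on chow, 0.10 and 0.32 CPM in replicates 5 and 6, came from libraries that lacked over 20% of the weak genes. Without the 9 libraries of this kind, the log2 fold changes of Ctsk were 3.52 and -1.37, with edgeR adjusted p = 5.74e-12 and 2.42e-05.

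Ctsl (chr13:64359337-64370890, minus strand) encodes cathepsin L, another broad lysosomal protease. From the lowest over the median to the highest mouse, its CPM were 700, 926 and 1088 on chow, 842, 1010 and 1104 on WTD, and 891, 1039 and 1201 with atorvastatin. The 3 groups overlapped, and no comparison passed the test. The log2 fold change was 0.11 for WTD over chow (95% CI -0.02 to 0.25, edgeR adjusted p = 0.16) and 0.04 for atorvastatin over WTD (95% CI -0.07 to 0.16, edgeR adjusted p = 0.75). Ctsl shares 395 exon bases on its own strand with the pseudogene Gm49230, which had 0 counts.

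**Figure D3:**
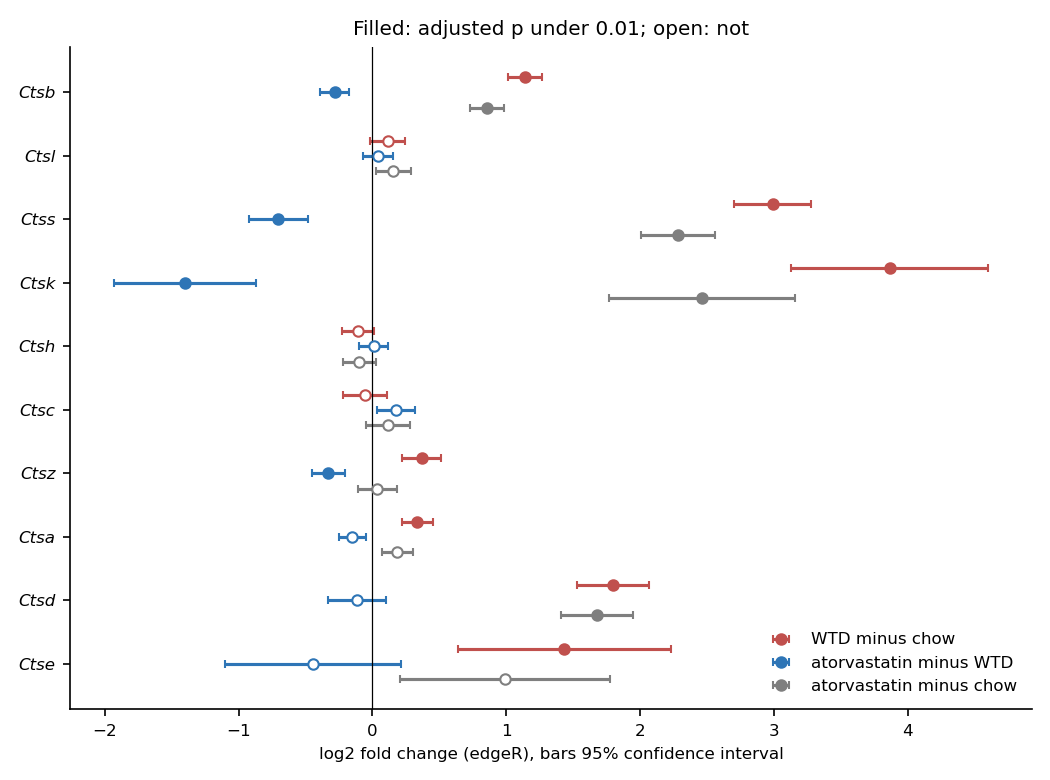
Log2 fold change of each cathepsin gene in the 3 comparisons with its 95% confidence interval from edgeR, where filled points have an adjusted p under 0.01. Ctsk and Ctss have the largest changes, Ctsz is at 0.04 between atorvastatin and chow, and Ctsd is at 1.80 on WTD and 1.68 with atorvastatin relative to chow.

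Of the cysteine cathepsins that trim ends of proteins, Ctsz (chr2:174427493-174439039, minus strand) encodes cathepsin Z, also called X, a carboxypeptidase. The CPM of Ctsz (lowest, median and highest mouse) were 276, 300 and 366 on chow, 316, 394 and 540 on WTD, and 279, 317 and 396 with atorvastatin. The WTD-fed mice were mostly high, with 13 of 16 above all chow-fed mice, while the treated mice covered nearly the same range as chow. Ctsz was 1.29-fold higher on WTD than on chow (95% CI 1.17 to 1.42, edgeR adjusted p = 2.8e-05) and fell by 20.4% with atorvastatin (log2 fold change -0.33, SE 0.06, edgeR adjusted p = 0.00019). Between atorvastatin-treated and chow-fed mice its log2 fold change was 0.04 (95% CI -0.11 to 0.18, edgeR adjusted p = 0.73).

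Ctsh (chr9:90054152-90076089, plus strand) encodes cathepsin H, an aminopeptidase. Its CPM lay between 260 and 312 on chow, between 226 and 312 on WTD and between 228 and 323 with atorvastatin, with medians of 290, 268 and 280. The groups overlapped and no comparison passed the test, with log2 fold changes of -0.11 (95% CI -0.23 to 0.01) for WTD over chow and 0.01 (95% CI -0.10 to 0.12) for atorvastatin over WTD. Ctsc (chr7:88278085-88310888, plus strand) encodes cathepsin C, the dipeptidyl peptidase that activates the serine proteases of leukocyte granules. Its CPM ranged from 103 to 175 on chow, from 97.6 to 148 on WTD and from 102 to 174 with atorvastatin, with medians of 138, 138 and 154. With atorvastatin 9 of 16 mice lay above all untreated WTD-fed mice, while others were among the lowest, and the log2 fold change of 0.17 (95% CI 0.03 to 0.32, edgeR adjusted p = 0.10) did not pass the test. Of 6 granule proteases on a list of its substrates, 3 were tested (Prtn3, Gzma and Gzmb), all with means under 2 CPM in each group. None was called in any comparison by edgeR, DESeq2 or limma-voom, and 1 (Prtn3, WTD over chow) had an unadjusted edgeR p under 0.05.

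Ctsa (chr2:164832873-164841032, plus strand) encodes cathepsin A, the serine carboxypeptidase that also holds neuraminidase 1 and beta-galactosidase together in the lysosome. The lowest, median and highest CPM of Ctsa were 157, 184 and 209 on chow, 197, 234 and 261 on WTD, and 184, 209 and 236 with atorvastatin. The treated mice lay between the other groups and overlapped with both. Ctsa was 1.26-fold higher on WTD than on chow (95% CI 1.16 to 1.37, edgeR adjusted p = 3.3e-06). The differences of atorvastatin from WTD (log2 fold change -0.15, SE 0.05, edgeR adjusted p = 0.035) and from chow (0.18, SE 0.06, edgeR adjusted p = 0.0101) missed the threshold. DESeq2 put the former past it with an adjusted p of 0.00079 and the latter with 0.0053. Of the partners of cathepsin A, Neu1 was not called in any comparison (log2 fold change 0.06 and -0.24), and Glb1 was higher on WTD (0.63, edgeR adjusted p = 1.9e-06). Ctsa shares 495 exon bases with Pltp on the opposite strand, whose log2 fold changes were 1.47 and -0.09 for WTD over chow and atorvastatin over WTD.

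Ctsd (chr7:142375911-142388038, minus strand) encodes cathepsin D, the main aspartic protease of the lysosome. Its lowest, median and highest CPM were 9.53, 14.9 and 28.1 on chow, 40.7, 51.2 and 80.5 on WTD, and 34.9, 51.5 and 61.1 with atorvastatin. Both WTD-fed groups lay above all chow-fed mice and overlapped with each other nearly throughout. Ctsd was 3.47-fold higher on WTD than on chow (95% CI 2.88 to 4.18, edgeR adjusted p = 3.3e-16) and also higher with atorvastatin than on chow (log2 fold change 1.68, 95% CI 1.41 to 1.95). Between the WTD-fed groups its log2 fold change was -0.12 (95% CI -0.33 to 0.10, edgeR adjusted p = 0.58), so that a fall of the size seen in Ctss lay outside the interval. The other aspartic protease, Ctse (chr1:131638306-131675505, plus strand), encodes cathepsin E, an enzyme mainly of stomach epithelium and immune cells. The lowest, median and highest CPM of Ctse were 0, 1.95 and 9.17 on chow, 3.77, 6.15 and 18.7 on WTD, and 2.18, 5.10 and 9.81 with atorvastatin. All WTD-fed mice were above the chow median, but the ranges overlapped, with chow replicates 1 and 3 at 9.17 and 5.17 CPM. Ctse was 2.70-fold higher on WTD than on chow (95% CI 1.55 to 4.68, edgeR adjusted p = 0.0025), and fitting only these groups gave an adjusted p of 0.013. Its difference between atorvastatin and chow did not pass the test (log2 fold change 0.99, edgeR adjusted p = 0.043), but it did without chow replicate 1 (1.44, edgeR adjusted p = 0.0027). The 3 lowest values on chow, 0, 0.051 and 1.15 CPM, were those of the libraries lacking over 20% of the weak genes, and without the 9 such libraries the log2 fold change of WTD over chow was 1.14 and that of atorvastatin over chow 0.51. Of 8 markers of gastric and pancreatic epithelium, Gkn1, Gkn2 and Prss1 had no count in any mouse, Muc5ac, Amy2b, Tff1 and Tff2 had 1, 15, 36 and 375 counts over all 42 mice, and Cela1 was lower on WTD than on chow (log2 fold change -0.63).

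The livers also differed in markers of the cells that hold cathepsins, and in bulk tissue fewer cells of a type and less RNA per cell cannot be told apart. Of 7 macrophage markers, Itgam was listed at 0 in all mice, the other 6 were all higher on WTD than on chow, and 2 fell with atorvastatin (Lyz2, log2 fold change -0.99, and Cd68, -0.56). Their summed CPM ranged from 185 to 279 on chow, from 897 to 2055 on WTD and from 719 to 1418 with atorvastatin. For atorvastatin over WTD, 1 of the 6 had a positive log2 fold change (0.19, not called), and limma-voom called 3. Of 7 markers of lipid-associated macrophages, 7 were higher on WTD, with Gpnmb at 6.40 and Trem2 at 3.83 on the log2 scale, and 4 fell with atorvastatin, among them Trem2 (-0.97) and Lpl (-1.02). In edgeR 1 of the 7 had a positive log2 fold change with atorvastatin (0.31), and DESeq2 called 5 and limma-voom 7 there. Over all tested genes limma-voom also called more in that comparison, 3145 against 1106 in edgeR. Of 5 Kupffer cell markers, Cd5l (3.12) and Vsig4 (1.05) rose on WTD, and with atorvastatin Cd5l fell (-0.39) while Clec4f rose (0.62). Of 6 stellate cell markers, 3 rose on WTD, among them Col1a2 (3.43) and Col1a1 (3.53), and with atorvastatin Col1a2 (-0.77) and Pdgfrb (-0.61) fell while Reln rose (0.47). All 8 hepatocyte markers fell on WTD, such as Ttr (-1.29) and Alb (-0.90), and 5 rose with atorvastatin, such as Alb (0.63) and Tat (0.75).

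Among the other cell types, 2 of 4 monocyte markers, 4 of 4 cholangiocyte markers, 4 of 4 tested neutrophil markers and 1 of 5 dendritic cell markers were higher on WTD than on chow, and edgeR called none of these 4 lists between the WTD-fed groups, where 1 monocyte, 4 cholangiocyte, 1 neutrophil and 1 dendritic cell marker had an unadjusted p under 0.05. DESeq2 called 1 monocyte marker there, and limma-voom, with 3145 of all genes called against 1106 in edgeR, 1 monocyte marker and 4 cholangiocyte markers. Of 5 sinusoidal endothelium markers, 1 was higher and 2 lower on WTD, and Clec4g was higher with atorvastatin (log2 fold change 0.59). Of 6 T and NK cell markers and 4 B cell markers, none was called in any comparison by edgeR. For WTD over chow, 2 T and NK cell markers and 1 B cell marker had an unadjusted p under 0.05, and DESeq2 called 1 and limma-voom 2 of the former. With the macrophage marker mean as a covariate in edgeR, 0 of the 10 members were called in any comparison, and 4, 6 and 7 of all tested genes were called for WTD over chow, atorvastatin over WTD and atorvastatin over chow. For WTD over chow, the log2 fold changes in that fit were 1.61 for Ctsd (1.80 without the covariate), 0.39 for Ctsa (0.34), 1.41 for Ctsk (3.87), 1.24 for Ctss (2.99) and 0.66 for Ctsb (1.14), while Ctse and Ctsz changed sign. For atorvastatin over WTD they were -1.02 for Ctsk, -0.43 for Ctss, -0.23 for Ctsz and -0.20 for Ctsb, with edgeR adjusted p from 0.050 to 0.10. The marker mean of the chow-fed mice does not overlap with that of the WTD-fed mice, so that diet and marker level cannot be told apart in such a fit.

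Within a group no diet or drug contrast enters, and the log2 CPM of each member was compared there with the mean log2 CPM of the 6 macrophage markers across mice, by a two-sided permutation test. Among atorvastatin-treated mice, Ctsb (Pearson r = 0.82, permutation p = 9.0e-05, Spearman rho = 0.85, permutation p = 4.0e-05, n = 16) and Ctss (r = 0.80, permutation p = 0.00015, rho = 0.79, permutation p = 0.00060) followed the markers most closely. Adjusted over all 15574 genes, the permutation p values of r were 0.040 and 0.042, and those of rho were 0.052 and 0.086, none of which passed 0.01. Without the 2 mice farthest from the median of the marker mean, r was 0.77 for Ctsb and 0.69 for Ctss. With Adgre1 alone in place of the 6 markers, r was 0.43 for Ctsb and 0.35 for Ctss. Ctsz (r = 0.63, rho = 0.77), Ctsd (r = 0.60, rho = 0.73) and Ctsk (r = 0.51, rho = 0.37) had unadjusted permutation p of r under 0.05 as well, and so did Ctsh with the opposite sign (r = -0.65, rho = -0.61). Without the 2 farthest mice these r were 0.60, 0.59, 0.38 and -0.54, and the permutation p of Ctsk was then 0.18 (rho = 0.36). Among untreated WTD-fed mice, r ran from -0.30 to 0.45 over the members and none had an unadjusted p of r under 0.05. Without the 5 WTD libraries that lacked weak genes, r was 0.76 for Ctsa (unadjusted permutation p = 0.0070) and 0.62 for Ctsz (0.042), and with RLE normalization it was 0.51 for Ctsb (0.045). On chow, r was 0.71 for Ctse (rho = 0.71) and -0.79 for Ctsa (rho = -0.71), with adjusted permutation p of 0.40 for both, and without the 2 farthest mice r was 0.46 and -0.68. Ctsb was negative on chow as well (r = -0.53, unadjusted permutation p = 0.11, rho = -0.68, unadjusted permutation p = 0.034). After RLE normalization r of Ctsb on chow was -0.69 (unadjusted permutation p = 0.026). Ctss was positive there (r = 0.48, rho = 0.68, unadjusted permutation p of rho = 0.035). In all, 30 correlations of members were computed, and in this permutation test 0 of the 10 members and 0 of all tested genes passed an adjusted p of 0.01 for r in any group, with 2, 0 and 6 members at an unadjusted p of r under 0.05 in chow, WTD and atorvastatin-treated mice, and 4, 0 and 5 by rho. The smallest p that 100000 permutations can give is 1e-05. After adjustment over 15574 genes, a gene alone at that p could not pass 0.01. The absence of calls thus does not show that no gene followed the markers.

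**Figure D4:**
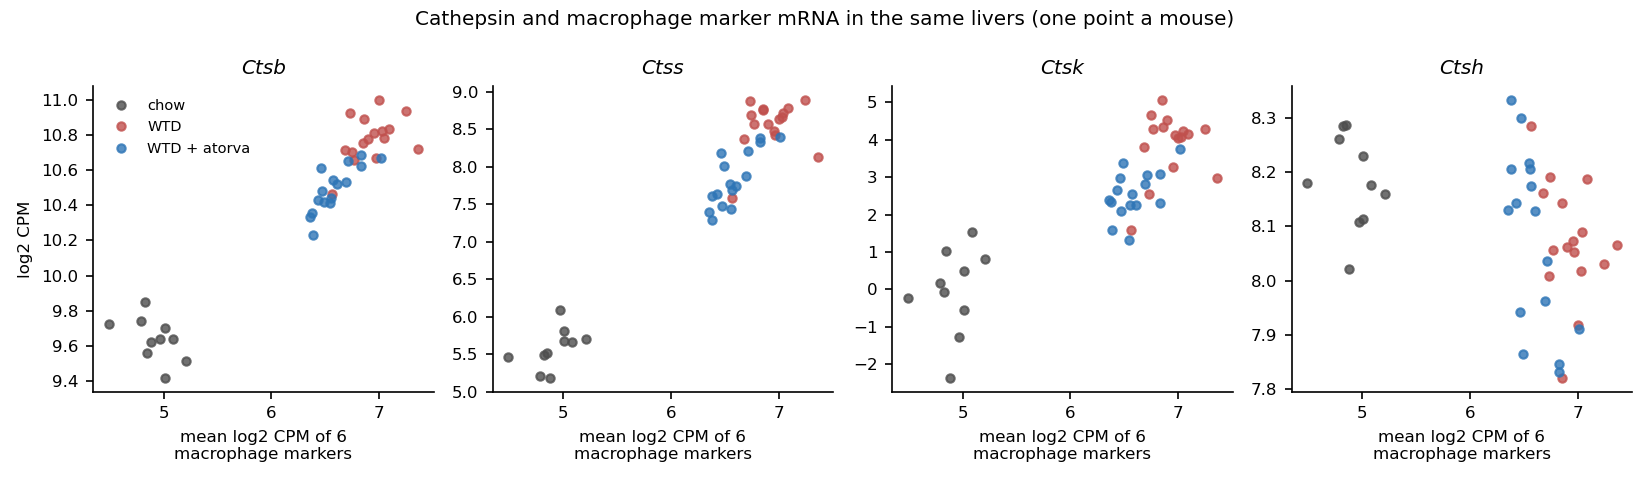
Log2 CPM of Ctsb, Ctss, Ctsk and Ctsh against the mean log2 CPM of 6 macrophage markers, one point a mouse, coloured by group. The marker mean runs from 4.49 to 5.21 on chow, from 6.56 to 7.36 on WTD and from 6.36 to 7.02 with atorvastatin, so that the diet groups lie apart and only values within a group are compared.

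Other genes of the cathepsin system were taken from lists. The 13 other cathepsin genes of the mouse gave little signal, as 8 of them had no count in any mouse and only Ctsf, Ctso and Ctsw were tested. None of these 3 was called in any comparison by edgeR, none had an unadjusted p under 0.05, and limma-voom called none of the list. DESeq2, which tests weaker genes, called Ctsj, with 244 counts over all mice and 0 on chow. Of the tested 3, Ctso was the highest with mean CPM of 72.6, 73.0 and 70.5 in the 3 groups. Of 12 listed inhibitors, 6 were tested, and they went in both directions. Cst3 (cystatin C, log2 fold change 0.45), Cstb (stefin B, 1.33) and Serpina3g (1.16) rose on WTD, and Serpinb1a (-1.36) and the kininogens Kng1 (-0.70) and Kng2 (-0.48), made by hepatocytes, fell. With atorvastatin Cst3 (-0.35) and Cstb (-0.77) fell and Kng1 (0.40) and Kng2 (0.35) rose. Each of the 6 tested inhibitors was thus called in the diet comparison, and 4 in the drug comparison.

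For sorting and maturation, 6 of 11 genes rose on WTD and 0 fell, with a median log2 fold change of 0.28. Lgmn, which encodes legumain, the protease that cuts several cathepsins to their two-chain form, had the largest log2 fold change (2.03, SE 0.09, edgeR adjusted p = 5.7e-25). Igf2r (0.57) and M6pr (0.32), the mannose 6-phosphate receptors, and Sort1 (1.20), Gnptab (0.74) and Scarb2 (0.28) rose as well. With atorvastatin, Lgmn fell (-0.33, SE 0.07, edgeR adjusted p = 0.0011). EdgeR and DESeq2 called 1 of the 11 there and limma-voom 2, with 3 at an unadjusted p under 0.05. Of 30 other lysosomal hydrolases and their cofactors, 21 rose on WTD and 1 fell (Gaa, -0.28), with a median of 0.54, and the smallest p values belonged to Psap (prosaposin, 1.48) and Gusb (1.69). With atorvastatin 4 of the 30 fell, among them Hexa (-0.48), Psap (-0.45) and Npc2 (-0.35), and Gaa rose (0.23), with a median of -0.07. Against these 5 calls by edgeR, DESeq2 called 8 and limma-voom 14 of the 30. Over all genes, the calls in that comparison were 1106 in edgeR, 1400 in DESeq2 and 3145 in limma-voom.

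**Figure D5:**
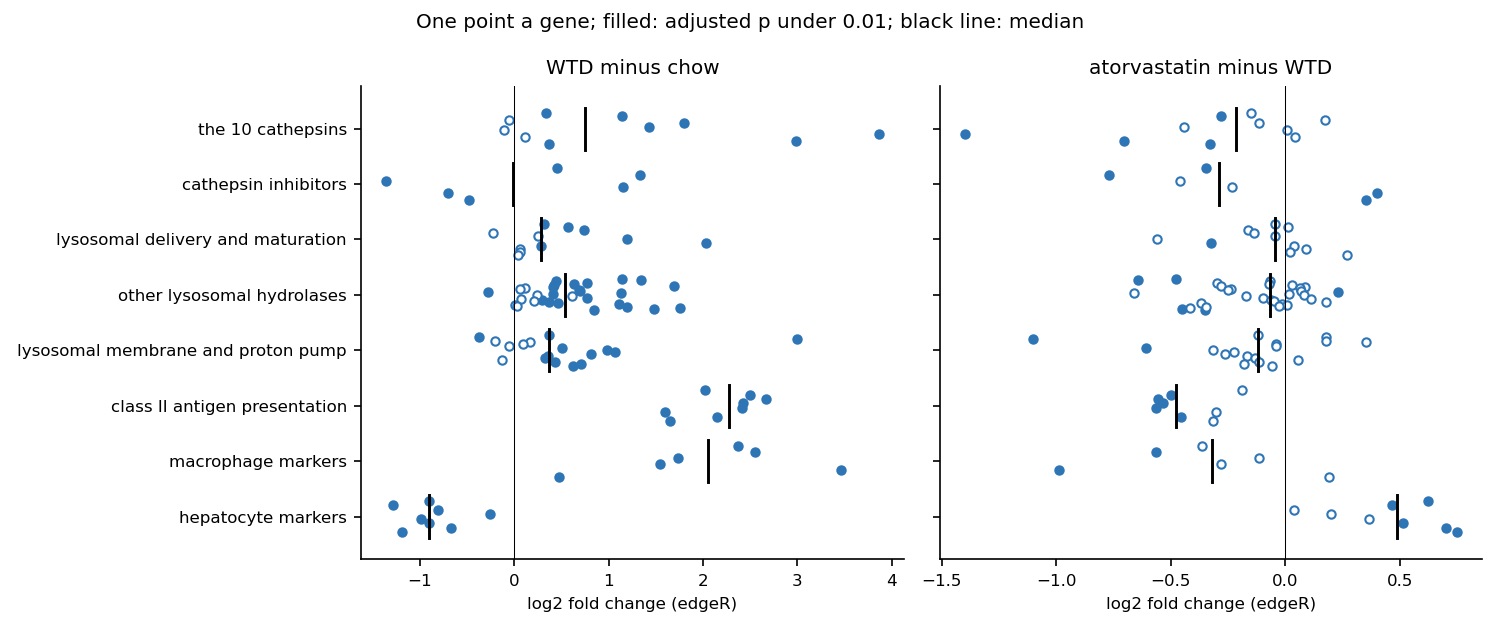
Log2 fold changes of the genes of 8 lists for WTD over chow and for atorvastatin over WTD, one point a gene, filled at an adjusted p under 0.01, with the median of each list as a black line. The cathepsins spread from -0.11 to 3.87 on WTD, more widely than the other hydrolases (-0.28 to 1.76). Genes of the lysosomal membrane and proton pump run from -0.38 to 3.00, while class II genes all lie between 1.60 and 2.67.

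Of 17 tested genes of the lysosomal membrane and proton pump, 11 rose on WTD and Lamp2 fell (-0.38), with a median of 0.37, and the smallest p values were those of Atp6v1b2 (1.06) and Cd63 (3.00). Cd63 (-1.10) and Atp6v0d2 (-0.61) fell with atorvastatin by edgeR. DESeq2 called 6 genes of the list there and limma-voom 10, and 12 had an unadjusted edgeR p under 0.05. Limma-voom called more of all genes too, 3145 against 1106 in edgeR. Atp6v0c was listed at 0 in all mice. Of the MiT-TFE factors, which switch on lysosomal genes, Tfe3 (0.43) and Mitf (1.06) rose on WTD, while Tfeb (0.30, edgeR adjusted p = 0.25) and Tfec (0.48, edgeR adjusted p = 0.14) did not pass the test, and edgeR called none of the 4 between the WTD-fed groups, with 1 at an unadjusted p under 0.05 that DESeq2 and limma-voom called. Of 8 genes of class II antigen presentation, the process that cathepsin S serves, 8 rose on WTD with a median of 2.28, and 5 fell with atorvastatin, with H2-Ab1 (2.43 and -0.53), H2-Eb1 (2.41 and -0.57) and Cd74 (2.5 and -0.50) among them.

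For the members, the 3 genes with a mean of at least 100 counts whose log2 CPM followed each most closely were named by the lowest of the 3 Pearson r within the groups, as a description. They were Plpp2 (0.76), Vsir (0.74) and Pip4k2a (0.71) for Ctss, Sort1 (0.68), Ncam1 (0.66) and Fhl2 (0.66) for Ctsk, and Tnip1 (0.71), Grn (0.69) and Tgfb1 (0.63) for Ctsz. For Ctsh they were 1810019D21Rik (0.67), Acsl3 (0.66) and Insig1 (0.65), of which Acsl3 encodes an acyl-CoA synthetase and Insig1 the protein that holds SREBP in the endoplasmic reticulum. For Ctsd they were Tgm2 (0.54), Tm6sf1 (0.53) and Adam8 (0.49), and for Ctsb Tspan8 (0.58), Arpc1b (0.54) and Ssbp4 (0.53). For Ctsc the first was 4732465J04Rik (0.56), for Ctse Arhgap23 (0.51) and for Ctsa Pold4 (0.47).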

How the data were processed

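RNA of 42 livers was sequenced by the authors as strand-specific, paired-end mRNA libraries. Per the labels and the study's methods, the authors used STAR for alignment to GRCm38 (GENCODE vM19) and HTSeq 0.6.1p1 for counting per gene. The deposited values are raw counts per gene. The 42 single tables were identical to the joint table. HTSeq's summary lines were left out (no feature 2.28%, ambiguous 5.96%, not unique 4.68% on average). Of 54446 gene identifiers, 54409 were found in GENCODE vM21, which gave symbols, positions and lengths.

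Members, lists, tests and alternatives were chosen with earlier results of these data known. The names given are all 10 members, per list and comparison the 2 called genes with the smallest p, every gene of the shorter lists, and the 3 genes most like each member, of which some are not reported here. 2 genes of the last kind were described by function after their values were seen.

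All 42 mice entered 1 fit of edgeR 4.0.16 (limma 3.58.1, R 4.3.3): filterByExpr (minimum count 10, total 15), TMM, robust quasi-likelihood test, Benjamini-Hochberg adjustment over 15574 genes, no covariate, since no batch is given. The fit was tested on simulated data. CPM use TMM-scaled library sizes, log2 CPM a prior count of 2. Correlations used 100000 permutations, with an exact permutation test for fewer than 10 mice. Alternatives were DESeq2 1.42.0, limma-voom with quality weights, RLE normalization, other filters, groups, thresholds, libraries, covariates and lengths, and leaving out each mouse. The length without bases shared on the same strand was added after seeing the data. Python 3.11.15 with pandas 2.3.3 and scipy 1.17.1 was used for tables.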

Additional observations from a re-analysis of the deposited data

Results flagged for a closer look

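Chow replicate 5 stood apart from the 9 other chow-fed mice in Ctsd, with 28.1 CPM against 9.53 to 18.8 CPM. Its gap to the next mouse was 0.498 of the range of the group, above Dixon's 95% critical value for 10 mice. Of the 10 members, Ctsd was the only one with such a mouse on chow, and chance gives about 1 in 20 groups. The groups of 16 mice were not tested in this way. The library of chow replicate 5 lacked 43.1% of the weak genes. Without it, the log2 fold change of Ctsd was 1.93 for WTD over chow and 1.81 for atorvastatin over chow.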

How the results depend on the processing

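Without the macrophage covariate, 9 alternatives were tested for each member (8 for Ctse and Ctsk, which were left untested when every mouse had to have 10 counts). All 7 calls of WTD over chow held in them except Ctse with only the 2 groups, and the 4 calls of atorvastatin over WTD and the 4 of atorvastatin over chow held in all. Ctsa for atorvastatin over WTD passed the threshold in 3 of 9 (adjusted p from 0.00079 to 0.12) and for atorvastatin over chow in 5 of 9 (0.00012 to 0.027) and in 12 of 42 fits without 1 mouse. Ctse for atorvastatin over chow passed it in limma-voom (adjusted p = 0.0085) and without chow replicate 1 (edgeR adjusted p = 0.0027). Leaving out each mouse changed no other call.

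With the macrophage marker mean as a covariate, the members called were 0, 0 and 0 and the genes called 4, 6 and 7. The log2 fold changes that reversed there were -1.43 (Ctse), 0.48 (Ctsh) and -0.20 (Ctsz) for WTD over chow, 0.067 (Ctse) and -0.093 (Ctsh) for atorvastatin over WTD, and -1.37 (Ctse), 0.39 (Ctsh) and -0.43 (Ctsz) for atorvastatin over chow. Of the called members that kept their sign for WTD over chow, Ctsd was at 1.61 and Ctsa at 0.39 there, against 1.80 and 0.34 without the covariate. Neither was called with the covariate, and diet and marker level cannot be told apart in that fit. The genes called for atorvastatin over WTD, 1106, were 2021 at an adjusted p under 0.05, 3145 with limma-voom and 1664 without the 9 libraries that lacked weak genes. The cause of these differences was not tested.

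For atorvastatin over WTD, Ctsh and Ctsl lay near 0 and changed sign. Ctsh was at -0.034 with DESeq2, -0.035 with RLE, -0.031 when every mouse had to have 10 counts, -0.000598 with only the 2 groups, -0.015 without the 9 libraries, and between -0.0089 and 0.024 without each mouse in turn. Ctsl was at -0.0017 with DESeq2 and -0.00202 with RLE. Of the correlations with the macrophage markers, 15 changed sign, none of them called. Without the 9 libraries r was -0.0134 (Ctsl, chow), -0.0267 (Ctse, WTD), -0.37 (Ctsk, WTD) and -0.0159 (Ctss, WTD). With Adgre1 alone it was 0.072 (Ctsc), 0.056 (Ctsh) and -0.11 (Ctss) on chow, and -0.0267 (Ctsb), -0.082 (Ctse) and -0.063 (Ctss) on WTD. Without the 2 farthest chow-fed mice it was 0.49 (Ctsc), -0.024 (Ctsl) and 0.25 (Ctsz), and with RLE 0.023 (Ctsc) and 0.061 (Ctsl) with atorvastatin. No paired analysis was possible because the mouse numbers of the chow-fed series and of the WTD-fed series name different mice, and the WTD-fed groups share no number.

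Whole liver, the separate number series of the chow-fed mice and 9 libraries that lacked weak genes limit these values, most of all for Ctse and Ctsk.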

Other observations

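Cathepsin B released from damaged lysosomes is known as a signal for the NLRP3 inflammasome, and 8 genes of that arm were measured. Of them, 5 rose on WTD relative to chow: Nlrp3 (log2 fold change 1.69), Pycard (1.29) and Casp1 (1.60), which build the inflammasome, and Tlr4 (2.02) and Nfkb1 (0.58), which prime it. The mRNA of Il18, whose protein matures through the inflammasome, fell (-0.66), and Il1b (0.48, edgeR adjusted p = 0.29) and Rela (0.22, edgeR adjusted p = 0.018) did not pass the test. These are mRNA values. The paper measured hepatic protein and reports both IL-1β and IL-18 as higher on WTD than on chow and lower with atorvastatin. For Il18 on WTD, mRNA and protein thus went in opposite directions. Between the WTD-fed groups edgeR and DESeq2 called none of the 8, limma-voom called 2, and 3 had an unadjusted edgeR p under 0.05. Those 3 were Pycard (-0.72), Il18 (0.52) and Tlr4 (-0.48), and 6 of the 8 log2 fold changes were negative. Nlrp3 itself was at 1.88, 6.06 and 5.77 mean CPM on chow, on WTD and with atorvastatin, with a log2 fold change of -0.07 (SE 0.33) for the drug. From RNA, the paper reports TLR4, CTSB and NFκB as lower with atorvastatin than on WTD alone, and its text names no NFκB subunit. Here edgeR called Ctsb lower in that comparison, while neither edgeR nor DESeq2 called Tlr4, Nfkb1 or Rela. Immunostaining of NLRP3, which shows protein, rose on WTD in the paper, which describes this rise as prevented in treated mice.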
